A study of Mus musculus with 6 samples.

Results

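The assays described here are those for the miR-18, miR-19 and miR-25/92 families, the miRNAs of the miR-17-92 cluster and its paralogs that do not carry the miR-17 seed. Every well whose name has miR-18, miR-19, miR-25, miR-32, miR-92 or miR-363 was taken, with any letter and from either card, and assays for the opposite arm, marked with #, were left out. This gave 8 of the 750 miRNA assays, all named for mouse and all on card A: mmu-miR-18a, mmu-miR-18b, mmu-miR-19a, mmu-miR-19b, mmu-miR-25, mmu-miR-92a, mmu-miR-32 and mmu-miR-363. They were measured by TaqMan real-time PCR in 6 pools of 300 blastocysts each, 3 of them vitrified (named V1 to V3) and 3 fresh (F1 to F3), from 30 ng of total RNA per pool. All embryos came from superovulated Kunming mice, an outbred white strain, whose females were 5 weeks old. The vitrified embryos were held for 30 seconds in 10% ethylene glycol with 10% DMSO and for 25 seconds in EDFS30 inside an open-pulled straw, went into liquid nitrogen, and were warmed for 5 minutes in 0.5 M sucrose. The fresh embryos are the untreated control. The study judged survival by form and re-expansion hours after warming, and does not say when the pooled embryos were taken. Time after warming and any selection of survivors therefore cannot be told apart from vitrification. A pool mixes the inner cell mass and trophectoderm of embryos from many females, so that fewer cells of a type and less RNA per cell cannot be told apart.

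A miRNA is cut from one arm of a hairpin and guides silencing proteins to messenger RNAs that match its seed, the bases near its 5′ end. The Mir17 to Mir92-1 hairpins lie on a single primary transcript, a known target of MYC in proliferating cells, and the Mir106a to Mir363 and Mir106b to Mir25 clusters are its paralogs. Bcl2l11, which encodes the pro-apoptotic protein BIM, is a well-known target of the miR-25/92 family. The miR-17-92 cluster is known to be active in embryonic stem cells and in the early embryo.

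The mature sequences show how the 8 assays fall into 3 seed families, and are credited to RefSeq on GRCm38.p6. An assay name without an arm was taken as the guide arm. All 8 names were matched, and bases 2 to 8, the seed, are in capitals. The sequence of mmu-miR-17 is set beside them because its seed differs from that of miR-18 by 1 base.
mmu-miR-18a: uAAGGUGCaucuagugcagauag
mmu-miR-18b: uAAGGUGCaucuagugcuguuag
mmu-miR-19a: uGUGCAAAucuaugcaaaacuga
mmu-miR-19b: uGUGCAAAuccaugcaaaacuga
mmu-miR-25: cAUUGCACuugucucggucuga
mmu-miR-92a: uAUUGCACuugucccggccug
mmu-miR-32: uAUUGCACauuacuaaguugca
mmu-miR-363: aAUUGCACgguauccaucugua
mmu-miR-17: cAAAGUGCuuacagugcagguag

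Counting from 1 at the 5′ end, the seed of mmu-miR-18a differs from that of mmu-miR-17 by A4G. The miR-18 pair differs by A18U and A20U outside the seed, and the miR-19 pair by U11C alone. From mmu-miR-92a, mmu-miR-25 differs at 3 of the 21 positions compared (U1C, C14U and C18U), mmu-miR-32 at 10 and mmu-miR-363 at 11. How far an assay also reads its near-identical partner was not tested.

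On GRCm38.p6 the mature mmu-miR-18a lies at chr14:115043867-115043889 and mmu-miR-19a at chr14:115044048-115044070, both on the plus strand. The remaining members lie on the minus strand unless stated, with mmu-miR-18b at chrX:52742381-52742403 and mmu-miR-363 at chrX:52741697-52741718. Mature mmu-miR-19b has 2 identical copies, at chr14:115044358-115044380 on the plus strand and at chrX:52741991-52742013. Likewise mmu-miR-92a comes from chr14:115044476-115044496 on the plus strand and from chrX:52741854-52741874, so that neither assay can be assigned to one locus. The mature mmu-miR-25 lies at chr5:138165332-138165353 and mmu-miR-32 at chr4:56895272-56895293, the latter outside the 3 clusters. The 6 hairpins on chromosome 14 span 836 bases, the 6 on chromosome X span 875 and the 3 on chromosome 5 span 498.

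**Figure D1:**
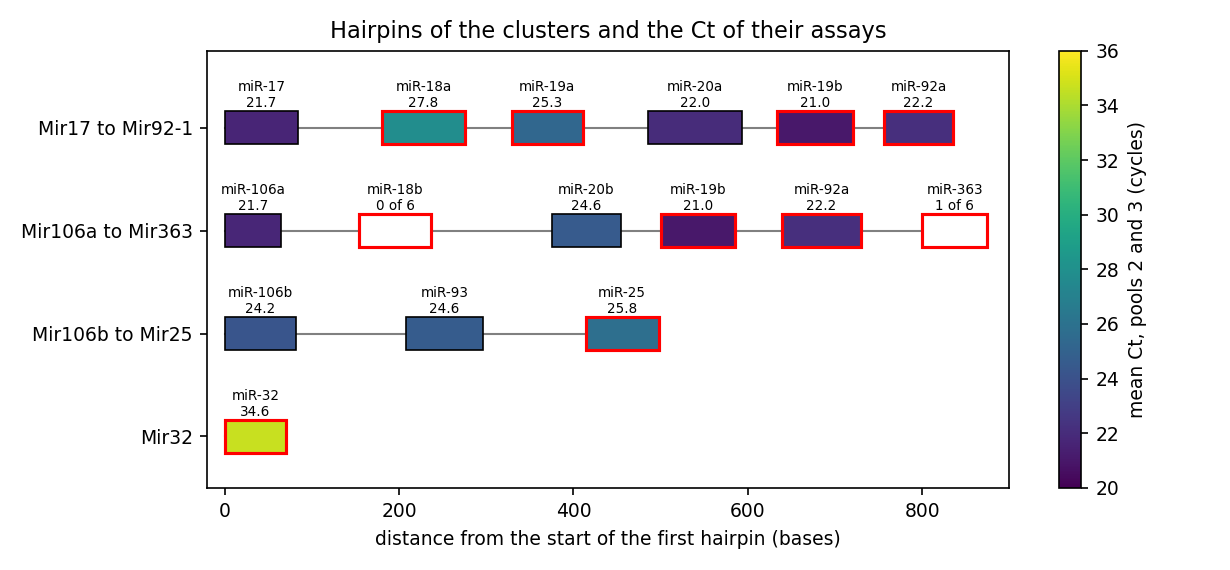
Hairpins of the 3 clusters and of Mir32, drawn to scale by distance in bases from the first hairpin of each cluster in the direction of transcription; fill colour and the number above give the mean Ct of the assay over V2, V3, F2 and F3 in cycles, and red outlines mark the assays described here. The white boxes, mmu-miR-18b and mmu-miR-363, had a Ct in 0 and 1 of the 6 pools.

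The threshold cycle (Ct) is the PCR cycle at which a well crosses a fluorescence threshold, so that a lower Ct means more template. A well that did not cross by cycle 40 is undetermined. ΔCt is the Ct of an assay after subtracting the average of the 4 wells for U6, a small nuclear RNA, on its card in that pool, and −ΔCt is used as a log2 level. The pools with the number 1 stood apart from the others, with a Ct for 29.1% of the miRNA assays in V1 and 18.7% in F1, against 50.9% to 54.5% in V2, V3, F2 and F3. Results are therefore given for all 6 pools and for V2, V3, F2 and F3 alone. The labelled cell type was checked with miRNAs known from pluripotent cells, the miR-290 to miR-295, miR-302 and miR-367 assays, of which 0 of 14 were determined in V1, 1 in F1 (mmu-miR-367 at 33.35) and 6 to 8 in the other pools. Of 10 assays known from muscle, nerve, liver or blood cells, 6 were determined in V1, 5 in F1 and 9 or 10 in the others. Their summed level was 0.488% of U6 in V1, 0.188% in F1 and 8.40% to 11.3% in the other pools, against 0.545% to 2.48% for the pluripotent markers in V2, V3, F2 and F3 and 0.00127% in F1. The sum of the 10 counts miR-223 on both cards, and the earliest of them in every pool was hsa-miR-223 on card B. Its Ct was 25.50 in V1, 26.10 in F1 and 20.74 to 22.09 in the other pools. The card A assay mmu-miR-223 came later, at 29.77 in V1, 31.45 in F1 and 24.30 to 24.64 in the other pools. Undetermined in all 6 pools were mmu-miR-302a, mmu-miR-302c and mmu-miR-302d. The part of muscle, nerve, liver or blood cells in the values below was not tested.

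A Ct was obtained for 3 of the 8 members in V1, 6 in V2 and 7 in V3. In F1 it was obtained for 2, and in F2 and F3 for 6 each. The vitrified pools averaged 5.33 ± 2.08 members (SD, n = 3) and the fresh pools 4.67 ± 2.31 (SD, n = 3), which is within the scatter of the pools (p = 0.7 by a 2-sided exact permutation test, which with 3 against 3 cannot go below 0.1). The assays determined in V2, V3, F2 and F3 ran in the same order in each of these pools, from mmu-miR-19b as the earliest through mmu-miR-92a, mmu-miR-19a, mmu-miR-25 and mmu-miR-18a to mmu-miR-32. A Ct also carries the efficiency of its own assay, which was not measured, so this is an order of Ct values.

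The miR-19 family held the earliest member. The Ct of mmu-miR-19b was 21.16 in V2, 20.96 in V3, 20.89 in F2 and 21.04 in F3, but 28.31 in V1 and 31.85 in F1. In the first 4 of these pools it ranked between 2 and 12 among the 212 to 239 miRNA assays determined on card A. The Ct of its seed partner mmu-miR-19a was 25.38 in V2, 25.42 in V3, 24.97 in F2 and 25.36 in F3. V1 was at 33.03 and F1 was undetermined. Both assays thus kept within 0.5 cycles over the pools numbered 2 and 3. There the Ct values of the groups overlapped for mmu-miR-19b, while for mmu-miR-19a both vitrified values were the later ones, by less than 0.1 cycles between the nearest.

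The miR-25/92 family spread from very early to undetermined. The Ct of mmu-miR-92a was 22.09 in V2, 22.61 in V3, 21.96 in F2 and 22.07 in F3, with 28.13 in V1 and 29.13 in F1. For mmu-miR-25 it was 25.55 (V2) and 25.66 (V3) in the vitrified and 25.92 (F2) and 26.04 (F3) in the fresh pools, and V1 and F1 were undetermined. Both vitrified values were earlier than both fresh ones, by less than 0.5 cycles between the extremes. The Ct of mmu-miR-32 was 34.83 in V2, 36.30 in V3, 32.03 in F2 and 35.36 in F3, late in every pool, and V1 and F1 were undetermined. For mmu-miR-363, the last hairpin of the cluster on chromosome X, V3 alone gave a Ct, of 35.13.

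Of the cluster members determined in V2, V3, F2 and F3, mmu-miR-18a was the latest. Its Ct was 28.04 in V2, 27.17 in V3, 27.62 in F2 and 28.36 in F3, and V1 and F1 were undetermined. Its 4 values overlapped between the groups before U6 was subtracted. Its seed partner mmu-miR-18b was undetermined in all 6 pools. A well with no Ct by cycle 40 lies at least 11.64 cycles behind mmu-miR-18a in F3 and at least 12.83 cycles behind it in V3.

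**Figure D2:**
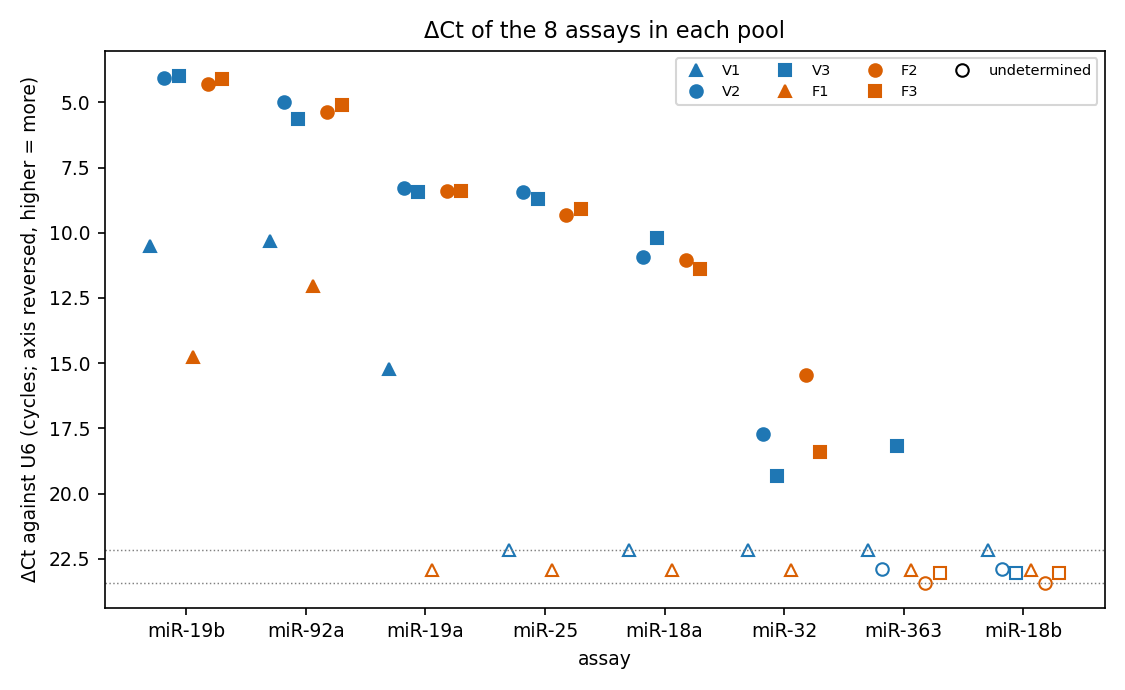
ΔCt of the 8 assays against U6 in cycles on a reversed axis, with 1 point per pool (blue, vitrified; orange, fresh; triangle, circle and square for pools 1, 2 and 3). Open symbols mark undetermined wells, drawn at the highest ΔCt that 40 cycles allow in that pool, and the dotted lines give the range of that limit, 22.18 to 23.41; V1 and F1 sit apart from the other pools for each assay they determined.

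Neighbours in this order differed by unequal steps. Over V2, V3, F2 and F3, ΔCt was 4.11 ± 0.14 for mmu-miR-19b, 5.28 ± 0.29 for mmu-miR-92a, 8.38 ± 0.08 for mmu-miR-19a, 8.89 ± 0.40 for mmu-miR-25, 10.90 ± 0.50 for mmu-miR-18a and 17.73 ± 1.66 for mmu-miR-32 (SD, n = 4 each). The narrowest step was from mmu-miR-19a to mmu-miR-25, 0.51 ± 0.37 cycles (SD, n = 4), with 0.18 (V2) and 0.24 (V3) in the vitrified and 0.95 (F2) and 0.68 (F3) in the fresh pools. This step was close to the spread between pools, while each of the others was over 3 times its SD. In V1 and F1 the first pair stood in the other order, with mmu-miR-19b later than mmu-miR-92a by 0.19 cycles in V1 and by 2.73 in F1, whereas it was earlier by 0.93 to 1.66 cycles in the other 4 pools.

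Most members moved less than the median card A assay among the pools numbered 2 and 3. Their Ct ranged over 0.27 cycles for mmu-miR-19b, 0.45 for mmu-miR-19a, 0.49 for mmu-miR-25, 0.65 for mmu-miR-92a and 1.18 for mmu-miR-18a, against a median of 1.42 over the 196 miRNA assays of card A determined in these 4 pools (quartiles 0.83 and 2.16). The value of mmu-miR-18a lies between these quartiles, and the 196 assays were not matched to the members by Ct. The exception was mmu-miR-32, with a range of 4.27 cycles at Ct values near the end of the run. For comparison, the 5 assays of the miR-290 to miR-295 cluster on card A, which are hallmarks of mouse pluripotent cells, ranged over 2.44 to 3.34 cycles.

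Whether vitrification changed these miRNAs was asked by comparing −ΔCt between the groups. No difference between vitrified and fresh blastocysts passed the test for any of the 6 members that could be compared. The limma model covered the 335 assays with 2 or more Ct values per group, among them 6 of the 8 members. Too few wells of mmu-miR-18b and mmu-miR-363 were determined for it. No member reached an adjusted p-value under 0.05 (limma, Benjamini-Hochberg over the 335 assays, of which 0% were called), and none had an unadjusted p-value under 0.05, as 0.299% of all tested assays did. Among the 6, 4 had a log2 fold change above 0, and the median was 0.58, beside 48.1% above 0 and a median of −0.053 over all tested assays. With the mean of the other endogenous controls in place of U6, 0 of the 6 members and 24.2% of all tested assays were above 0. Only controls with a Ct in all 6 pools entered that mean, which were snoRNA135 and snoRNA202 on card A. On card B it was snoRNA202 alone. In V2, V3, F2 and F3 alone the members' median was 0.10 and that of the 326 assays tested there −0.023, with 4 of 6 members and 49.4% of all assays above 0. Here too no member had an unadjusted p-value under 0.05, as 4.91% of all assays did. With the pool number as a block, it was again no member, and 1.21% of the 330 assays that this fit could test.

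For the miR-19 family the 6-pool values rested on V1 and F1. The ΔCt of mmu-miR-19b was 10.50 (V1), 4.05 (V2) and 3.99 (V3) when vitrified and 14.77 (F1), 4.30 (F2) and 4.09 (F3) when fresh. The vitrified mean of 6.18 ± 3.74 (SD, n = 3) and the fresh mean of 7.72 ± 6.11 (SD, n = 3) differed by less than the spread between pools, with a log2 fold change of 1.54 (SE 3.38; limma adjusted p = 0.998). It was 0.17 in V2, V3, F2 and F3, with a 95% interval from −1.26 to 1.60, and −0.33 over 6 pools with the other endogenous controls as the reference. For mmu-miR-19a, ΔCt was 15.21 in V1 and between 8.27 and 8.45 in the 4 pools numbered 2 and 3, where the groups overlapped. Its 6-pool log2 fold change of −2.25 (SE 2.40; limma adjusted p = 0.998) set 3 vitrified against only 2 fresh pools, as F1 was undetermined and V1 counted. Without the pools numbered 1 it was 0.030, with a 95% interval from −1.39 to 1.45. With the pool number as a block, which leaves V1 without a partner, it was also 0.030 (SE 0.97; limma adjusted p = 0.989). Its sign thus turned without V1, and it also turned, to 2.59, when undetermined wells were set to 40.

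In the miR-25/92 family, mmu-miR-25 was the member whose groups did not overlap, over the 4 pools in which it had a Ct. Its ΔCt was 8.45 (V2) and 8.69 (V3) when vitrified and 9.34 (F2) and 9.08 (F3) when fresh. The means were 8.57 ± 0.17 (SD, n = 2) and 9.21 ± 0.18 (SD, n = 2), with a log2 fold change of 0.64 (SE 1.12; limma adjusted p = 0.998), which was −0.18 with the other endogenous controls as the reference. The 2-sided exact permutation p was 0.333, the smallest that 2 pools against 2 allow. The ΔCt of mmu-miR-92a was 10.31 (V1), 4.99 (V2) and 5.65 (V3) when vitrified and 12.05 (F1), 5.37 (F2) and 5.11 (F3) when fresh, so that the groups overlapped. The means were 6.98 ± 2.90 (SD, n = 3) and 7.51 ± 3.93 (SD, n = 3). The log2 fold change of 0.53 (SE 2.37; limma adjusted p = 0.998) became −0.072 without V1 and F1 (95% interval −1.60 to 1.46), and −1.33 over 6 pools with the other endogenous controls. The ΔCt of mmu-miR-32 was 18.53 ± 1.13 (SD, n = 2) against 16.92 ± 2.10 (SD, n = 2), with a log2 fold change of −1.61 (SE 1.60; limma adjusted p = 0.998). It rested on F2, whose Ct of 32.03 was over 2 cycles ahead of the other pools, and was −0.13 without that pool.

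In the miR-18 family, the ΔCt of mmu-miR-18a was 10.94 (V2) and 10.21 (V3) when vitrified and 11.03 (F2) and 11.40 (F3) when fresh. The group means were 10.57 ± 0.52 (SD, n = 2) and 11.22 ± 0.26 (SD, n = 2). Its log2 fold change was 0.64 (SE 1.15; limma adjusted p = 0.998), and it too was −0.18 with the other endogenous controls. Like mmu-miR-25, its ΔCt values did not overlap between the groups, although its raw Ct values did. So 2 of the 6 tested members did not overlap. Of all tested assays, 15.2% had groups that did not overlap, with 10.1% higher and 5.07% lower in vitrified blastocysts. This share includes assays with 3 values in a group, which separate less readily than 2 against 2, so it is no matched background. For mmu-miR-18a too the 2-sided exact permutation p was 0.333, the smallest possible. Over V2, V3, F2 and F3 the 95% interval of mmu-miR-18a ran from −0.92 to 2.21 and that of mmu-miR-25 from −0.81 to 2.08, so that both intervals hold 0 as well as differences of 2 log2 units.

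**Figure D3:**
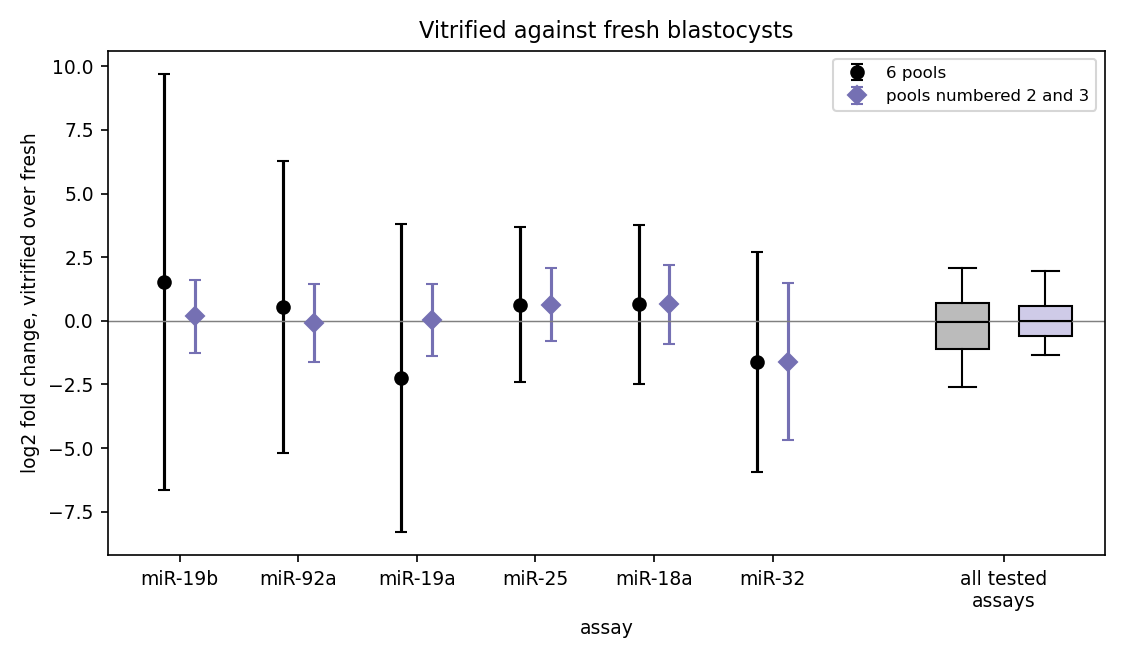
Log2 fold change of vitrified over fresh blastocysts in −ΔCt for the 6 members tested, with 95% intervals from limma, over all 6 pools (black circles) and over V2, V3, F2 and F3 (violet diamonds). The boxes give the quartiles, medians and the 5th to 95th percentiles of all tested assays over the same pools. Every interval of the 6 members includes 0 and is narrower once V1 and F1 are left out. For mmu-miR-18a, mmu-miR-25 and mmu-miR-32, without a Ct in V1 or F1, only what limma draws from the other assays changed.

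A Ct difference between 2 assays of the same card and pool needs no reference RNA, and was used to ask whether members moved against their seed partners and their neighbours on the transcript. Of 13 such pairs, 9 could be compared between the groups, and 0 passed (lowest Benjamini-Hochberg adjusted p = 0.857, exact permutation tests, 2-sided, with 0 of 9 at an unadjusted p under 0.05). With 2 pools against 2 no p under 0.333 is possible, and with 3 against 2 or 3 none under 0.1.

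The ratio within the miR-19 pair differed little among the 5 pools in which both assays had a Ct. The log2 level of mmu-miR-19a over mmu-miR-19b was −4.71 in V1, −4.22 in V2, −4.46 in V3, −4.09 in F2 and −4.31 in F3. It moved by less than 1 cycle over these 5 pools, while the Ct of either assay moved by more than 7. F1 lay outside this range, as mmu-miR-19b was at 31.85 there and mmu-miR-19a had no Ct by cycle 40, which puts the log2 ratio at −8.15 or lower. The vitrified mean was −4.47 ± 0.25 (SD, n = 3) and the fresh mean −4.20 ± 0.16 (SD, n = 2), with a difference of −0.27 (exact permutation test, p = 0.3).

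In the miR-25/92 family, the log2 level of mmu-miR-25 over mmu-miR-92a was −3.46 (V2) and −3.05 (V3) in the vitrified and −3.96 (F2) and −3.97 (F3) in the fresh pools. Over these 4 pools the groups did not overlap, with a difference of 0.71 (exact permutation test, p = 0.333, the smallest possible, and 0.857 after adjustment over the 9 pairs). The wells without a Ct put the ratio at −11.87 or lower in V1 and at −10.87 or lower in F1, so that with all 6 pools the groups overlap, and the difference was 0.14 with undetermined wells set to 40. Against mmu-miR-106b, the first miRNA of the Mir106b to Mir25 hairpins, mmu-miR-25 stood at −1.33 (V2) and −1.24 (V3) when vitrified and at −1.91 (F2) and −1.74 (F3) when fresh, a difference of 0.54 with no overlap over these 4 pools and the same p-values. Here the bounds are −8.46 for V1 and −5.38 for F1, and the difference was −0.67 with undetermined wells set to 40. Against mmu-miR-93, the middle miRNA of that cluster, its values were −0.89 in V2, −1.35 in V3, −1.43 in F2 and −1.23 in F3. These overlapped, and the difference was 0.21 (exact permutation test, p = 0.667). The log2 level of mmu-miR-32 over mmu-miR-92a was −12.75 (V2) and −13.69 (V3) when vitrified and −10.07 (F2) and −13.29 (F3) when fresh, with F2 apart from the rest, and that of mmu-miR-363 was −12.51 in V3. In the 5 pools without a Ct, mmu-miR-363 lies at least 10.87 cycles (F1) to 18.04 cycles (F2) behind mmu-miR-92a.

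On chromosome 14 the members were set against mmu-miR-17, the first hairpin of the transcript. The log2 level of mmu-miR-19b over mmu-miR-17 was 0.64 in V2, 1.06 in V3, 0.54 in F2 and 0.37 in F3, with 0.040 in V1 and −2.15 in F1. That of mmu-miR-92a was −0.30 in V2, −0.60 in V3, −0.53 in F2 and −0.66 in F3, with 0.23 in V1 and 0.57 in F1. In F1, mmu-miR-19b was thus lower against mmu-miR-17 than in any other pool, and mmu-miR-92a higher. For mmu-miR-18a the values were −6.25 in V2, −5.16 in V3, −6.19 in F2 and −6.95 in F3, and for mmu-miR-19a −4.67 in V1, −3.58 in V2, −3.41 in V3, −3.54 in F2 and −3.94 in F3. These 4 pairs differed between vitrified and fresh pools by 0.99, −0.019, 0.86 and −0.14 in the order given, and the exact permutation p-values were between 0.4 and 1.0. The first of these was 0.12 without F1 and 0.39 without both F1 and V1. That of mmu-miR-18a was 0.32 without V3 and 1.41 without V2.

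**Figure D4:**
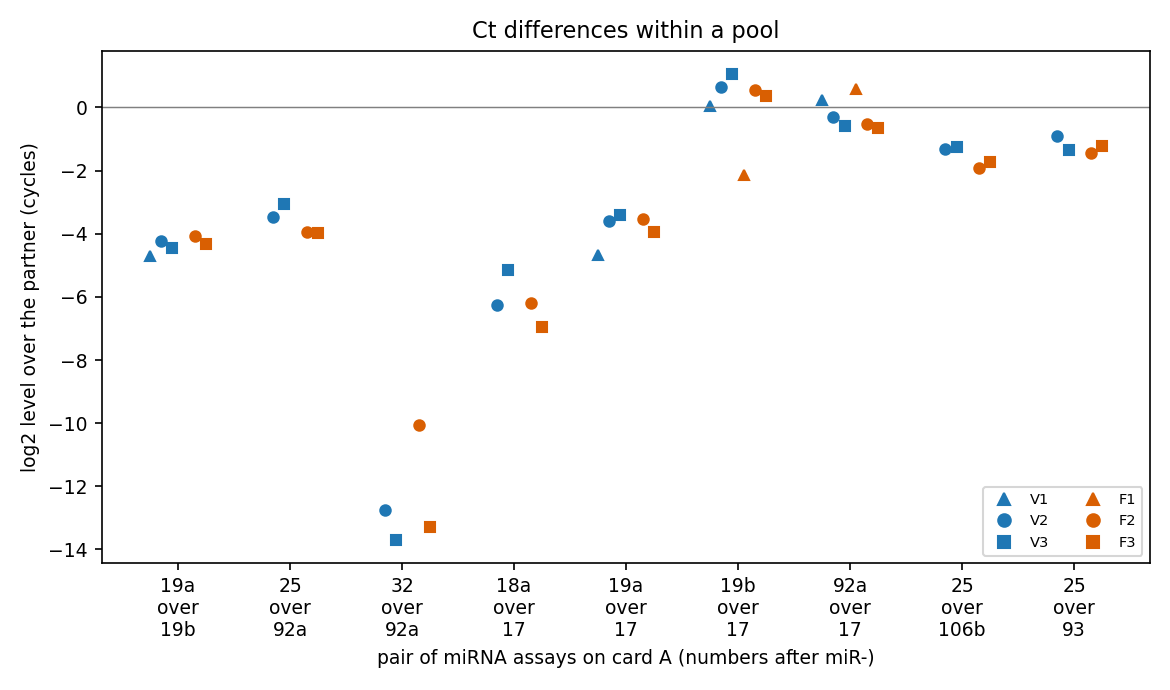
Log2 level of each member over a seed partner or cluster neighbour in the same pool, as the Ct difference in cycles, for the 9 pairs determined in both groups (blue, vitrified; orange, fresh; triangle, circle and square for pools 1, 2 and 3). The miR-19 pair lies between −4.71 and −4.09 in 5 pools, and the ratio of mmu-miR-25 to mmu-miR-92a lies between −3.46 and −3.05 in V2 and V3 and near −3.97 in F2 and F3.

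The lag of V1 and F1 differed among the members. In V1, mmu-miR-19a lagged behind the V2 and V3 mean by 7.63 cycles, mmu-miR-19b by 7.26 and mmu-miR-92a by 5.78, against a median of 5.65 over the 130 card A assays determined in V1 as well as V2 and V3. Another 72 assays with a Ct in V2 and V3 had none in V1, and with these at the least lag that 40 cycles allow the median was 6.87. In F1 against F2 and F3, mmu-miR-19b came 10.89 cycles later and mmu-miR-92a 7.11, against a median of 6.16 over 85 assays determined in F1 and of 8.56 with the 136 undetermined ones at their least lag. In V1, 31 determined and at least 57 undetermined assays lagged more than mmu-miR-19b. In F1 it was 3 determined and at least 73 undetermined ones, and for the other 63 undetermined assays the order is unknown. U6 itself averaged between 16.59 and 17.82 on card A in all 6 pools, whereas snoRNA202, another control on that card, was at 25.90 in V1, 27.47 in F1 and between 17.79 and 18.22 in the other pools. The lags are differences of raw Ct with no reference subtracted, so neither control enters them. The cause of the lags was not tested.

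The undetermined wells were read against assays of like Ct. In V1, mmu-miR-25 was undetermined although 38 of the 42 card A assays within 1 cycle of its mean Ct in V2 and V3 gave a Ct, and a well without a Ct there lies at least 14.39 cycles behind V2 and V3. In F1, 15 of the 34 assays near mmu-miR-25 and 19 of the 39 near mmu-miR-19a gave a Ct. Near mmu-miR-18a, it was 24 of 38 in V1 and 6 of 40 in F1, and near mmu-miR-32 it was 1 of 8 in V1 and 1 of 18 in F1. The loss of mmu-miR-25 in V1 thus stood apart from most assays of like Ct, while that of mmu-miR-32 did not.

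**Figure D5:**
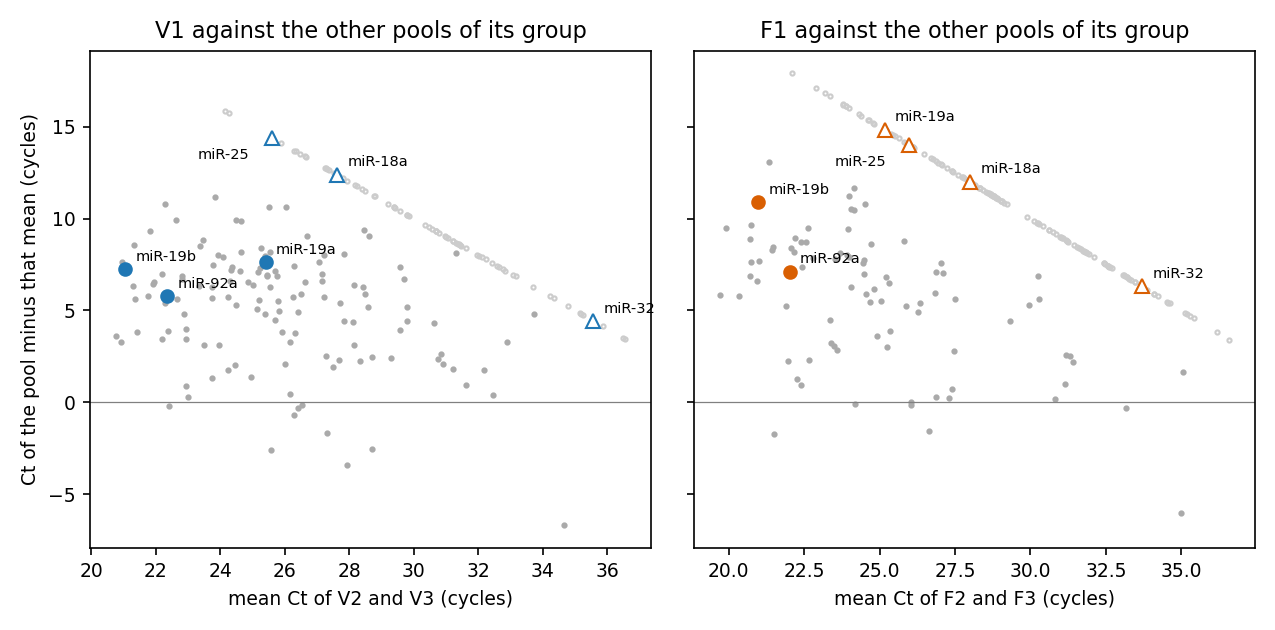
Ct of V1 (left) and F1 (right) minus the mean Ct of the pools numbered 2 and 3 of the same group, in cycles, against that mean, for the card A miRNA assays (grey) and the members (coloured). Triangles and open grey circles are undetermined wells, drawn at the least lag that 40 cycles allow; mmu-miR-19b lagged by 7.26 cycles in V1 and 10.89 in F1, and mmu-miR-25 had no Ct in either.

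The other miRNAs of the clusters carry the miR-17 seed, and 7 assays measured them. The 7 include a mouse and a rat assay for miR-20b. All 7 were tested with limma, 0 passed at an unadjusted or an adjusted p under 0.05, and 5 had a log2 fold change above 0, beside 48.1% of all tested assays. Their median log2 fold change was 0.55 over 6 pools and 0.15 over V2, V3, F2 and F3, where they ranged from −0.22 for mmu-miR-17 to 0.53 for mmu-miR-20a. Over 6 pools the range was −2.61 for mmu-miR-93 to 1.53 for mmu-miR-20b. For mmu-miR-93 and mmu-miR-20a (−2.32), F1 was undetermined and V1 counted, as for mmu-miR-19a. On the X chromosome, where mmu-miR-18b and mmu-miR-363 gave a Ct in 1 of 12 wells, mmu-miR-20b was determined in all 6 pools, at a mean of 24.56 over V2, V3, F2 and F3. The rat assay rno-miR-20b on card B was at 30.19 to 30.82 in these pools and undetermined in V1 and F1. Mature mmu-miR-20b is near-identical to mmu-miR-20a of chromosome 14, whose mean was 21.96, and how far its assay reads that miRNA was not tested. Of the X chromosome cluster, mmu-miR-106a was at a mean of 21.70, but it differs from mmu-miR-17 by U10A alone, and the Ct of these assays differed by less than 0.3 cycles in every pool.

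Of the opposite arms on card B, the mouse assays for miR-19a# and miR-92a#, the rat assay for miR-25# and the human assay for miR-363# were undetermined in all 6 pools. The exception was mmu-miR-18a#, the 3′ arm of the miR-18a hairpin:
mmu-miR-18a#: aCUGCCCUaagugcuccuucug
The capitals again mark bases 2 to 8. Its Ct was 31.48 in V2, 30.75 in V3, 30.69 in F2 and 30.93 in F3, and V1 and F1 were undetermined as for mmu-miR-18a. The log2 fold change was −0.24 (SE 1.13; limma adjusted p = 0.998), with overlapping groups, beside 0.64 for the 5′ arm. The difference between the arms was not tested.

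The likeness of other miRNAs to the members was measured over the 6 pools, as the root mean square distance of −ΔCt, centred on its mean over the pools, from the mean of mmu-miR-19b and mmu-miR-92a, the 2 members determined in every pool. Among 120 other assays the closest was mmu-miR-106a at 0.28 cycles, followed by mmu-miR-17 at 0.35, mmu-miR-30a at 0.36, mmu-let-7d at 0.37 and mmu-miR-30c at 0.42, against a median of 1.84. The 2 members themselves lay 0.73 cycles from their mean, farther than any of these 5. All these assays share the pools and the card, and the lag of V1 and F1 set most of each profile.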

How the data were processed

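Per the labels and the study's methods, total RNA of each pool was reverse transcribed, pre-amplified and run on the A and B cards of the TaqMan rodent miRNA array, and Ct was called with RQ Manager. The authors deposited raw Ct values in cycles, without normalization. Their deposited table of signed fold changes was not used. The members and lists were chosen with earlier results of these data known.

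A Ct of 40 or more was treated as undetermined and excluded. The mean of 4 U6 wells per card and pool was subtracted. For assays with 2 or more values in both groups, a linear model was fitted in R 4.3.3 (limma 3.58.1, lmFit, then eBayes), checked on simulated data, with Benjamini-Hochberg adjustment. Single values used 2-sided exact permutation tests in Python 3.11.15 with pandas 2.3.3 and numpy 2.4.6. Only 3 pools per group limit the precision, and the labels do not say whether they came from separate collections, so p-values measure the spread between these pools. Limma also draws on the spread of the other assays when it sets the SE of each. Same-numbered pools deviated together from their group means over 122 assays (correlations 0.80, 0.78 and 0.67), so the number was also used as a block. V2 with F3 gave 0.72 and V3 with F2 0.74, and V2 minus V3 correlated with F2 minus F3 at −0.35 over 326 assays, so that this check does not settle how the pools numbered 2 and 3 pair, and their numbers may be crossed. Replicate pools had no identical Ct values.

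The text names all members, their opposite arms, the miR-17 seed assays of the clusters, the controls, preset tissue markers, and the 5 most similar assays. Alternatives were other references, Ct limits, filters, pools and tests.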

Additional observations from a re-analysis of the deposited data

How the results depend on the processing

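The number of members with an adjusted or an unadjusted p-value under 0.05 was 0 under all 20 alternatives, and 0 pairs passed under the 10 tried for them. Over all assays, the number at an unadjusted p-value under 0.05 was 1 of 335 as reported, 16 of 326 in the pools numbered 2 and 3 and 24 with the block and the global mean, with 0 at an adjusted p-value under 0.05 in each. Directions were less stable. Against the mean of the other endogenous controls in place of U6, the median log2 fold change of all tested assays moved from −0.053 to −0.78 and the share above 0 from 48.1% to 24.2%, and 0 of the 6 members were above 0, with −0.18 for mmu-miR-18a, −0.33 for mmu-miR-19b, −0.18 for mmu-miR-25 and −1.33 for mmu-miR-92a. The median of all assays was 0.12 with the global mean and −0.35 without a reference. The number of members above 0, 4 of 6 as reported, was 7 of 8 in 3 settings that fill undetermined wells (at 40, at a ceiling of 35, and in the methods' t-test at that ceiling), where the share of all assays above 0 was 78.1%, 81.5% and 81.5%. An assay with no Ct in any pool, such as mmu-miR-18b, then differs only by U6, whose later mean in the vitrified pools puts it above 0. These counts and shares therefore hold assays whose direction was fixed by the filling. The number of members above 0 was 2 of the 2 determined in all 6 pools, beside 59.0% of the 122 such assays. Leaving out single pools gave 2 (without F1) to 5 (without V1), beside 30.1% and 65.4% of all assays above 0. The log2 fold change of mmu-miR-19a became 2.59 with undetermined wells set to 40, 0.92 with the ceiling and in the t-test with it, 0.030 in the pools numbered 2 and 3, 0.030 with the pool number as a block and 0.36 with the block and the global mean. That of mmu-miR-92a was −0.072 in the pools numbered 2 and 3. The block changed no other direction among the members and no call. With each pool left out, the range was −3.44 to 0.030 for mmu-miR-19a, −1.99 to 3.70 for mmu-miR-19b and −1.74 to 2.20 for mmu-miR-92a, with the lowest values of the last 2 without F1; it was 0.28 to 1.01 for mmu-miR-18a, 0.51 to 0.76 for mmu-miR-25 and −3.09 to −0.13 for mmu-miR-32.

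Among the pairs, setting undetermined wells to 40 gave differences of 1.05 for mmu-miR-19a over mmu-miR-19b, 2.04 for mmu-miR-19a over mmu-miR-17, −0.67 for mmu-miR-25 over mmu-miR-106b and −1.73 for mmu-miR-25 over mmu-miR-93. For mmu-miR-25 over mmu-miR-92a it gave 0.14 and for mmu-miR-18a over mmu-miR-17 0.13, as did the ceiling. The ceiling gave 0.37, −0.67 and −0.063 for mmu-miR-19a over mmu-miR-17 and for mmu-miR-25 over mmu-miR-106b and mmu-miR-93. In the pools numbered 2 and 3, mmu-miR-19a over mmu-miR-17 was 0.25, as with the block, and mmu-miR-92a over mmu-miR-17 was 0.15. With each pool left out, the range was 0.12 (without F1) to 1.47 for mmu-miR-19b over mmu-miR-17, 0.32 to 1.41 for mmu-miR-18a over mmu-miR-17, −0.39 to −0.14 for mmu-miR-19a over mmu-miR-19b, −0.38 to 0.25 for mmu-miR-19a over mmu-miR-17, −0.25 to 0.37 for mmu-miR-92a over mmu-miR-17, −0.021 to 0.43 for mmu-miR-25 over mmu-miR-93 and −3.15 to 0.076 for mmu-miR-32 over mmu-miR-92a. The cause of these shifts was not tested. A fit that leaves 1 pool in a group assumes that it varies like the others. The number of pools and the end of the run at 40 cycles limit what can be seen for mmu-miR-18b, mmu-miR-363 and mmu-miR-32.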
